A study of Mus musculus with 11 samples.

Results

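Cbp and p300 sites of the mouse tumour line M00001 were compared with each other. A site was a peak of the deposited Cbp or p300 list on chromosomes 1 to 19 or X that overlapped no IgG control peak of M00001 or of the second line, M00002. This left 4696 Cbp peaks and 5016 p300 peaks, together 9712 of the 158808 peaks deposited for the series. A Cbp peak that shared at least 1 bp with a p300 peak was called common, and all others were called Cbp-only or p300-only. There were 3831 Cbp-only sites, 4152 p300-only sites, and common sites made of 865 Cbp peaks and 864 p300 peaks. A few peaks met more than 1 partner, which gave 868 pairs.

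The series holds 11 CUT&RUN libraries from 2 mouse lines, a method in which a nuclease tethered to an antibody cuts out the DNA around the bound protein for sequencing. Both lines were derived from tumours, were grown without treatment in neural medium with growth factors, and carry the HA-tagged protein written CRfus1 in the labels, taken here as the ZFTA-RELA fusion of the series title. The sources used here do not say how the fusion was introduced. M00001 was profiled for Cbp, p300, Rpb1 S5, Rpb1 S2, HA and IgG, and M00002 for HA, IgG, p65 and H3K27ac with antibodies ac4729 and ac647. Each target had 1 library per line, so no difference below has a replicate check and no p-value is given. Intervals are 95% intervals over peaks and cover counting error only, and peaks of 1 library are not replicates.

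Cbp (gene Crebbp) and p300 (gene Ep300) are closely related lysine acetyltransferases. Both are brought to promoters and enhancers by transcription factors such as CREB, NF-kappaB and the Notch complex, and both acetylate histones, including lysine 27 of histone H3. Rpb1 is the largest subunit of RNA polymerase II, and its tail is phosphorylated at serine 5 around initiation and at serine 2 during elongation. The antibodies labelled Rpb_S5 and Rpb_S2 are taken here to read those marks.

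To show what the DNA under the 3 kinds of site looks like, the 250 bases before a gene start are printed for 2 genes of each class. They are the genes with the highest peak fold whose site covered at least 200 of those bases and whose window overlapped no gene of the annotation, limits set after the data were seen. At stronger common sites such as those of Vcl and Inpp5a the RefSeq window reached into the annotated gene, so these were passed over. The sequences are from RefSeq (GRCm38.p6, the assembly behind mm10) and are written 5′ to 3′ on the gene's strand. Capitals mark GC boxes, CCAAT boxes, ETS, kappaB and short CRE elements on either strand, whose letters are given with the motif shares at the end. Ypel5 (chr17:72836378-72836627, plus strand) lay under the Cbp-only peak chr17:72836303-72836665. Shmt1 (chr11:60811266-60811515, minus strand), the gene of cytosolic serine hydroxymethyltransferase, lay under the Cbp-only peak chr11:60811137-60811575. Lta4h (chr10:93453146-93453395, plus strand), which encodes the enzyme that makes leukotriene B4, had 245 of its bases under the p300-only peak chr10:93453113-93453390. The window of 1700056E22Rik (chr1:184033999-184034248, minus strand) lay under the p300-only peak chr1:184033847-184034431, which also reached the start of Dusp10, a phosphatase of MAP kinases. Parp3 (chr9:106476950-106477199, minus strand), an ADP-ribosyltransferase of DNA break repair, lay under a common site whose Cbp and p300 peaks together spanned chr9:106476280-106477268. Vim (chr2:13574061-13574310, plus strand), the gene of the intermediate filament protein vimentin, lay under the common site chr2:13573446-13574358.
Ypel5, Cbp-only: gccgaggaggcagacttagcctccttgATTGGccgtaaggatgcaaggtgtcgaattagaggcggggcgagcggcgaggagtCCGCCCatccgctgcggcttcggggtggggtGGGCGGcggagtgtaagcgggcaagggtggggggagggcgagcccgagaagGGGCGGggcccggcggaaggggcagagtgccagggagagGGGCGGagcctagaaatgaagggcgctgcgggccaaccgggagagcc
Shmt1, Cbp-only: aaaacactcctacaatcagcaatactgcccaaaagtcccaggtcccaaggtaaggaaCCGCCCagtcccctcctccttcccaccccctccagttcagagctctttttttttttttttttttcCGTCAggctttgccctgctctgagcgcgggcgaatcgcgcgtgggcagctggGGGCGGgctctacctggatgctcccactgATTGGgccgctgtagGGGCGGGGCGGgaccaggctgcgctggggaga
Lta4h, p300-only: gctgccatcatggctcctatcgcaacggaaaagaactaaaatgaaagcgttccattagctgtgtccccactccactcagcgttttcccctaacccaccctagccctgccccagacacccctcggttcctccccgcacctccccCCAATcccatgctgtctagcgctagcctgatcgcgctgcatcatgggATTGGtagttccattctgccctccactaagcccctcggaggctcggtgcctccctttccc
1700056E22Rik, p300-only: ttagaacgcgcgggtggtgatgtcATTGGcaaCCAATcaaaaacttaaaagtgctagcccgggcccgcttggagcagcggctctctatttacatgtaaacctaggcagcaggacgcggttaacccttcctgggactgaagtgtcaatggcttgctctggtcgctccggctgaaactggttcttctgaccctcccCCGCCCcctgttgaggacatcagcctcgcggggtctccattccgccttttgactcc
Parp3, common: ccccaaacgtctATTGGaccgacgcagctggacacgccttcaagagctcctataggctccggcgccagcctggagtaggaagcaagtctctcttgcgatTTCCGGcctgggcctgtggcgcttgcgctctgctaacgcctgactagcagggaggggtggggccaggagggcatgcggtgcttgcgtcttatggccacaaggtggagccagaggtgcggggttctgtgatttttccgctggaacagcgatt
Vim, common: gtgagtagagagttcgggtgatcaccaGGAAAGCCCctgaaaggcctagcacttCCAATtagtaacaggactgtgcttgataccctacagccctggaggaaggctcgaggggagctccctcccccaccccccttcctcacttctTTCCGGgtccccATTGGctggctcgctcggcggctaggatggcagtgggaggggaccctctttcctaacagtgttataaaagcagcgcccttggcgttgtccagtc
Ypel5 and Shmt1 held 4 GC boxes each, 1700056E22Rik held 1 and Lta4h none. Each of these 4 windows had a CCAAT box, and the p300-only windows had 2 each. Parp3 had no GC box, 1 CCAAT box and 1 ETS element, and Vim had no GC box, 2 CCAAT boxes, 1 ETS and 1 kappaB element. A match describes the letters and is not a measured binding site.

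The deposited Cbp list held 6608 peaks and the p300 list 6655. On chromosomes 1 to 19 and X they held 5847 and 6054, of which 1151 Cbp peaks and 1038 p300 peaks overlapped IgG and were removed. The removed peaks included most of the strongest, 98 of the 100 Cbp peaks with the highest fold and 93 of the 100 such p300 peaks. Of the removed peaks, 71.9% for Cbp and 79.6% for p300 overlapped the other coactivator. Read depth is unknown because the lists hold no read counts, and how many peaks a list holds does not measure occupancy.

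Most sites of each coactivator were found in 1 list only. Of the Cbp peaks 18.4% (17.3 to 19.6%) overlapped p300, and of the p300 peaks 17.2% (16.2 to 18.3%) overlapped Cbp. Within a pair the peaks lay closely on each other. The median overlap was 232.5 bp, the median distance between summits was 81 bp, and 58.4% of pairs had summits within 100 bp. The p300 peak was the wider in 65.9% of pairs.

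Sites of a single coactivator were seldom near misses of the other. The median gap from a Cbp-only site to the next p300 peak was 120 kb, and 123 of 3831 (3.21%) had one within 1 kb. For p300-only sites the median gap to Cbp was 104 kb, and 132 of 4152 (3.18%) had one within 1 kb. The pair with the smallest overlap counted as common shared 2 bp on chromosome 19, Cbp chr19:6909752-6909969 with a fold of 3.09 and p300 chr19:6909416-6909753 with a fold of 3.58. The nearest miss lay 1 bp apart on chromosome 2, Cbp chr2:30464352-30464583 with a fold of 3.09 and p300 chr2:30464131-30464350 with a fold of 2.95. Only 8 pairs shared 20 bp or less.

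In both lists strong peaks were shared more often than weak ones. Strength is given as −log10 q, the authors' multiple-testing value for each peak. Among Cbp peaks with −log10 q of at least 5, 69.3% of 215 overlapped a p300 peak of any strength (62.7 to 75.4%). Among p300 peaks of that strength, 41.1% of 543 overlapped Cbp (36.9 to 45.3%). From 10 upward the shares were 80.4% of 46 Cbp peaks and 42.4% of 125 p300 peaks. The shares depend on the lists admitted: 29.2% of Cbp peaks were shared without removal of IgG peaks, 35.3% when both lists were limited to −log10 q of 2 or more, and 41.4% with 5 or more. The share of p300 peaks in Cbp did not rise with these limits, at 15.9% and 16.6%, and was 28.3% without removal of IgG peaks. At these limits the lists were of unlike length, 1065 Cbp against 2358 p300 peaks and 215 against 543. The same overlaps thus make a smaller share of the p300 list, and these shares do not compare the coactivators. For the 2000 strongest peaks of each list the shares were 19.9% of Cbp and 19.8% of p300 peaks.

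Cbp-only sites were the narrowest class, and the p300 peaks of common sites the widest. Within each list the common peaks were wider and stronger than the peaks of that coactivator alone. Median widths were 242 bp for Cbp-only (quartiles 209 and 300), 266 bp for p300-only (220 and 356), 288 bp for common Cbp peaks (230 and 404) and 365 bp for common p300 peaks (273 and 491). Peaks of 500 bp or more made up 2.85%, 8.69%, 14.2% and 23.0% of these classes. The classes thus overlapped widely, and the medians of p300-only and Cbp-only sites differed by 24 bp. That difference was 52 bp among peaks with −log10 q of at least 5 and 50 bp among the 2000 strongest peaks of each list.

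The authors' fold enrichment over the peak caller's background, given at the summit, followed the same order within its own list. Common Cbp peaks had a median fold of 3.78 and Cbp-only peaks 3.38. Common p300 peaks had 4.20 and p300-only peaks 3.69. A q below 0.01 was reached by 15.9% of Cbp-only, 41.7% of p300-only, 52.8% of common Cbp and 72.3% of common p300 peaks. At the other end, q was 0.1 or more for 67.4% of Cbp-only peaks and 31.1% of p300-only peaks, so most Cbp-only sites were weak calls by this measure.

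**Figure D1:**
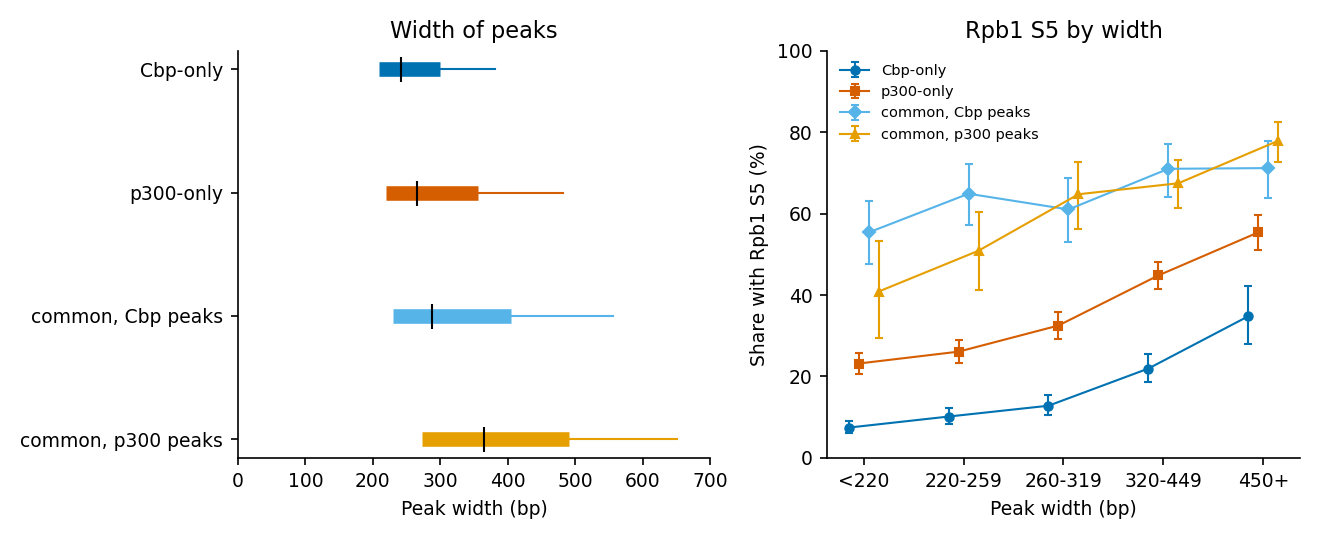
Left, width of peaks in bp by class: the black mark is the median, the thick bar runs between quartiles and the thin line to the 90th percentile. Right, share of peaks that overlapped Rpb1 S5 (%) in 5 classes of width, with exact 95% intervals; Cbp-only runs from 7.42% to 34.8% and lies below p300-only, from 23.2% to 55.4%, in every class.

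p300-only sites lay at gene ends more often than Cbp-only sites, and a difference there between p300-only and common sites was not shown. Genes are the 21631 protein-coding genes of GRCm38.p6, and an end is the start or the 3′ end. Within 1 kb of an end lay 11.5% of Cbp-only sites (10.5 to 12.6%), 24.2% of p300-only sites (22.9 to 25.6%), 21.5% of common Cbp peaks (18.8 to 24.4%) and 21.9% of common p300 peaks (19.2 to 24.8%). p300-only exceeded Cbp-only by 12.7 percentage points (11.1 to 14.4), and common Cbp peaks exceeded Cbp-only by 9.99 (7.18 to 13.0). Common p300 peaks minus p300-only gave −2.35 points (−5.30 to 0.795). Among peaks with −log10 q of at least 5 the difference of p300-only and Cbp-only was 25.3 points (18.1 to 30.9). IgG peaks without either coactivator, the background measured the same way, lay there in 5.96% of 1157 in M00001 and 5.27% of 4574 in M00002.

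The starts of genes accounted for most of these positions. Starts, here and in the figures, were those of 21020 RefSeq windows, which cover 17251 of the 21631 genes and include alternative starts. Within 1 kb of a start lay 9.16% of Cbp-only, 21.5% of p300-only, 21.2% of common Cbp and 21.2% of common p300 peaks. Positions within 1 kb of an end but of no such start held 3.52%, 5.39%, 3.82% and 3.94%, and these can include starts of genes without a window. Inside genes, more than 1 kb from any end, lay 37.4% of Cbp-only and 35.7% of p300-only sites, a difference within counting error of −1.74 points (−3.85 to 0.376). Between genes lay 51.1% of Cbp-only and 40.1% of p300-only sites, and the median distance to the nearest end was 22.2 kb and 15.4 kb. Of common p300 peaks 44.1% lay between genes, 4.02 points above p300-only sites (0.416 to 7.66).

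The side of the start also differed. Of the summits within 1 kb of a start, 64.5% of 879 p300-only summits (61.2 to 67.7%) lay upstream, as did 73.7% of 179 common Cbp summits (66.7 to 80.0%) and 76.2% of 181 common p300 summits. Of the 335 Cbp-only summits 46.0% lay upstream (40.5 to 51.5%). Median positions were 22 bp downstream for Cbp-only, and −72, −144 and −142 bp, that is upstream, for p300-only, common Cbp and common p300 peaks.

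**Figure D2:**
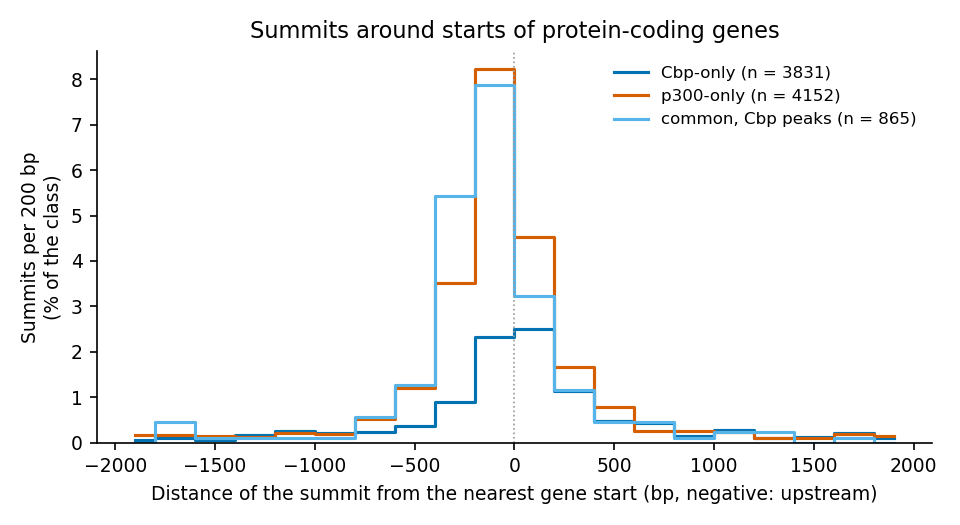
Share of each class's summits (%) in bins of 200 bp by distance from the nearest start of a protein-coding gene with a RefSeq window (bp, negative upstream). Classes are 3831 Cbp-only, 4152 p300-only and 865 common Cbp peaks. The p300-only and common lines peak just upstream of the start, and the Cbp-only line is lower and about even on both sides of it.

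Polymerase marked the 3 classes in steps: few Cbp-only sites, more p300-only sites and most common sites. Rpb1 S5 peaks, after removal of those at IgG, overlapped 12.7% of Cbp-only sites (11.7 to 13.8%), 34.2% of p300-only sites (32.8 to 35.7%), 64.97% of common Cbp peaks (61.7 to 68.2%) and 66.1% of common p300 peaks (62.8 to 69.2%). The difference of p300-only and Cbp-only was 21.5 points (19.7 to 23.2). That of common Cbp peaks and Cbp-only was 52.2 points (48.8 to 55.5), and that of common p300 peaks and p300-only 31.9 (28.4 to 35.3).

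Rpb1 S2 gave the same order at higher shares. It overlapped 17.5% of Cbp-only sites (16.3 to 18.7%), 45.4% of p300-only sites (43.9 to 46.9%), 70.1% of common Cbp peaks (66.9 to 73.1%) and 70.7% of common p300 peaks (67.6 to 73.7%). p300-only exceeded Cbp-only by 27.9 points (26.0 to 29.8). Both forms together lay at 8.12% of Cbp-only, 27.8% of p300-only, 55.4% of common Cbp and 55.9% of common p300 peaks. Neither form lay at 77.9%, 48.2%, 20.3% and 19.1%. S2 without S5, at 9.34% and 17.6% of Cbp-only and p300-only sites, was more frequent than S5 without S2, at 4.62% and 6.38%. The S2 list was also the longer, with 21151 peaks free of IgG against 9331 for S5.

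The order held both near gene ends and away from them. Within 1 kb of an end S5 lay at 35.6% of Cbp-only, 66.7% of p300-only, 89.8% of common Cbp and 91.0% of common p300 peaks. Farther away it lay at 9.76%, 23.8%, 58.2% and 59.1%. p300-only exceeded Cbp-only in S5 by 31.1 points near ends (25.6 to 36.3) and by 14.0 points away from them (12.3 to 15.8). For S2 the shares near ends were 56.2%, 82.0%, 94.6% and 95.2%, and away from them 12.4%, 33.7%, 63.3% and 63.9%.

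**Figure D3:**
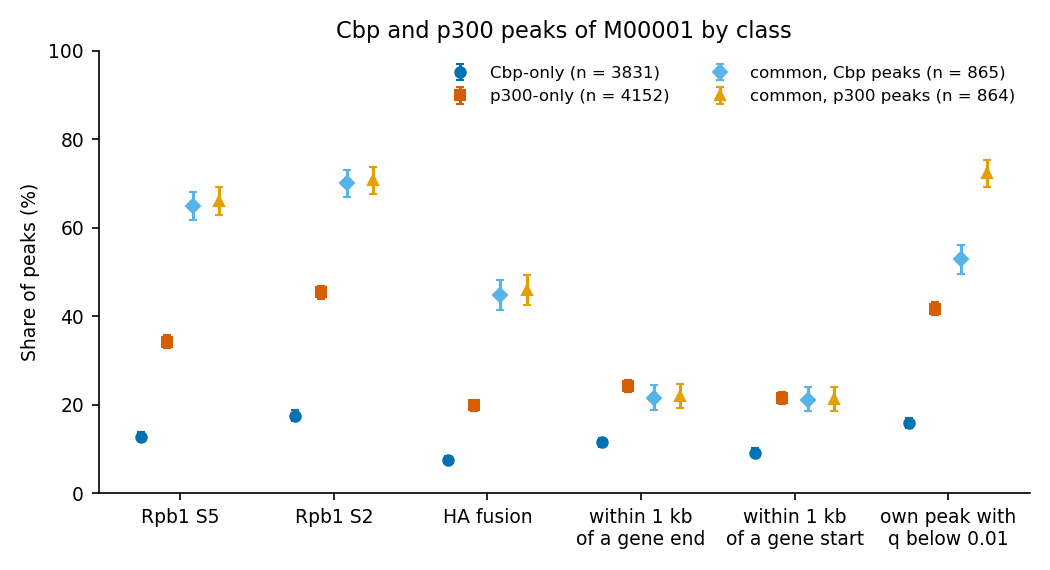
Share of peaks (%) with Rpb1 S5, Rpb1 S2 or the HA-tagged fusion of M00001, within 1 kb of a gene end or a gene start, and with q below 0.01, in the 4 classes, with exact 95% intervals. In each of the first 3 groups Cbp-only is lowest, p300-only intermediate and the common classes highest; at gene ends and starts p300-only lies beside the common classes.

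S5 rose with peak strength in every class up to a −log10 q of 10. With rising −log10 q, S5 at Cbp-only sites rose from 5.48% of 1660 peaks under 0.5 to 31.8% of 242 peaks between 3 and 5. At p300-only sites it rose from 15.2% of 376 to 55.9% of 526 over the same classes. Between 5 and 10 it lay at 47.4% of 57 Cbp-only and 56.9% of 248 p300-only sites. At 10 or more it was lower, at 38.9% of 72 p300-only sites and at 33.3% of only 9 Cbp-only sites. Common Cbp peaks started at 52.7% of 110 and reached 89.2% of 37 at 10 or more. Common p300 peaks ran from 30.4% of 23 to 79.2% of 53.

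Within each class of −log10 q below 5, p300-only sites had more S5 than Cbp-only sites, by 9.68 points (6.19 to 13.8) under 0.5 and by 24.1 points (16.6 to 31.0) between 3 and 5. Among the strongest sites, −log10 q of 5 or more, this was not shown: 320 p300-only sites exceeded 66 Cbp-only sites by 7.36 points, with an interval from −5.77 to 20.0. For S2 the same sites differed by 15.5 points (2.48 to 28.2). When every list, polymerase included, was limited to −log10 q of at least 5, the differences were 9.57 points for S5 (0.234 to 17.8) and 7.78 for S2 (−2.07 to 17.3). An equal −log10 q need not mean equal strength in the Cbp and p300 lists, since read depth is unknown. The part of peak strength and width in the differences between whole classes was not tested further.

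**Figure D4:**
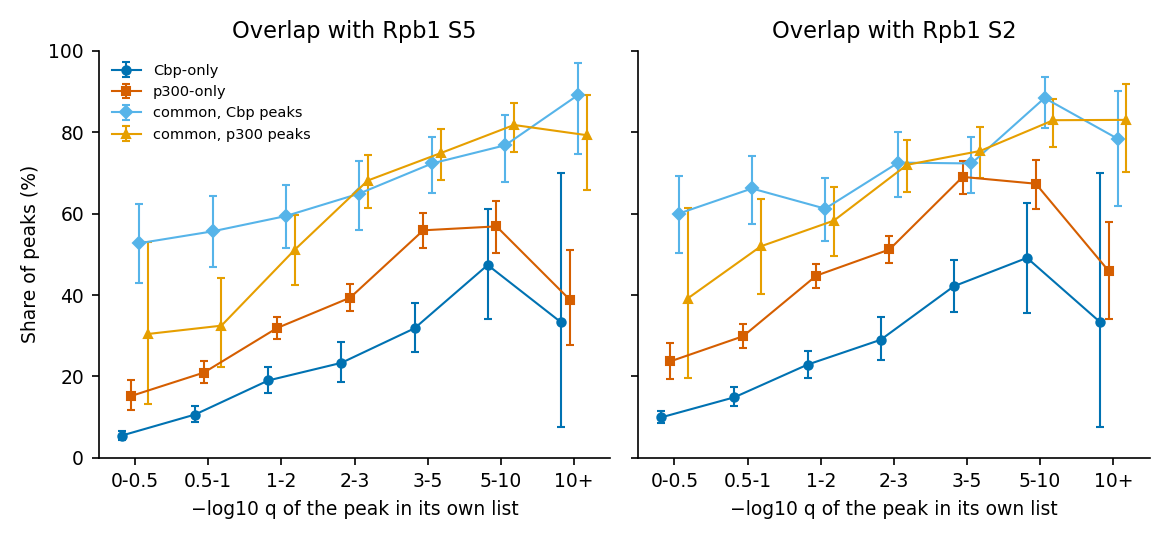
Share of peaks (%) that overlapped Rpb1 S5 (left) or Rpb1 S2 (right) in 7 classes of −log10 q of the peak in its own list, with exact 95% intervals. The p300-only line lies above the Cbp-only line in every class, with overlapping intervals from 5 upward for S5, and both lie below common Cbp peaks.

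Seen from the polymerase, most peaks held neither coactivator. Of 9331 S5 peaks 5.24% held a Cbp-only site, 15.2% a p300-only site, 6.12% a common site and 73.6% none. From the weakest to the strongest of 5 equal classes of S5 peaks by fold, the share with a p300-only site rose from 6.37% to 27.3%, that with a common site from 2.79% to 13.2%, and that with a Cbp-only site from 3.48% to 7.29%. Of 21151 S2 peaks 3.18% held Cbp-only, 8.86% p300-only and 2.91% common sites, and 85.1% none.

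The HA-tagged fusion followed the same order. HA peaks of M00001 overlapped 7.54% of Cbp-only, 19.8% of p300-only, 44.9% of common Cbp and 45.9% of common p300 peaks. Sites with HA carried S5 more often in each class. S5 lay at 43.9% of Cbp-only sites with HA and 10.2% without, at 60.4% and 27.7% of p300-only sites, and at 75.5% and 56.4% of common Cbp peaks. The gap between p300-only and Cbp-only sites was present among sites with HA, at 16.4 points (9.76 to 22.9), and among sites without it, at 17.5 points (15.7 to 19.4).

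Lists of the second line, M00002, gave that order too, in cells of another tumour. H3K27ac with ac4729 overlapped 10.8% of Cbp-only, 40.0% of p300-only, 52.3% of common Cbp and 53.9% of common p300 peaks, and p65 overlapped 6.29%, 22.6%, 39.2% and 41.1%. Of Cbp-only sites 71.3% lay in none of the 7 other target lists of either line, against 35.5% of p300-only sites and 11.9% of common Cbp peaks. At the other end, 33 Cbp-only sites (0.861%), 176 p300-only sites (4.24%) and 120 common Cbp peaks (13.9%) lay in all 7.

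Counted by gene, p300 reached more genes than Cbp. Of 21631 protein-coding genes, 1436 (6.64%) had a Cbp peak within 5 kb of either end and 2133 (9.86%) had a p300 peak. Both lay at 477 genes (2.21%), Cbp without p300 at 959 (4.43%) and p300 without Cbp at 1656 (7.66%). The 477 genes made up 33.2% of the Cbp genes and 22.4% of the p300 genes. A common site lay at 363 genes (1.68%), and 114 of the 477 had both coactivators at separate places only. The count of genes with both was 256 with a window of 1 kb, 1654 with 25 kb and 34 with −log10 q of at least 5.

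Polymerase at these genes followed the sites. S5 lay within 5 kb of an end at 84.9% of genes with both, 70.5% with p300 and no Cbp, 39.9% with Cbp and no p300, and 21.1% with neither. S2 lay at 92.5%, 87.9%, 69.7% and 45.1%, and HA at 66.2%, 43.3%, 24.9% and 11.8%. Neighbouring genes can share a peak, so genes were not compared by a test.

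The common sites with the highest folds at genes carried polymerase in 9 of 10 cases. The first was inside Scgb1a1, the secretoglobin gene known from airway club cells, with a fold of 11.6 for Cbp and 11.8 for p300 and an S5 fold of 13.9. At Adgrf2, an adhesion receptor gene, with Cd2ap as neighbour, the folds were 10.0 and 9.30 over peaks of 823 and 816 bp. The shared region between Parp3 and Rrp9, a factor of ribosomal RNA processing, had 7.70 and 6.98 and lay in all 7 other target lists. At Rps29, a protein of the small ribosomal subunit, the folds were 9.53 and 6.61, and the HA fold there, 20.2, was the highest among the 10. Vcl, the gene of the adhesion protein vinculin, had 6.75 and 6.71 over its start, with S5 at 8.50 and S2 at 9.74. Brpf1, a scaffold of histone acetyltransferase complexes, and its neighbour Cpne9 shared a site of 5.77 and 7.88. Inpp5a, an inositol polyphosphate phosphatase, had 6.90 and 7.08, Ptp4a1, a protein tyrosine phosphatase, 6.85 and 6.49, and Cep295nl 7.02 and 6.38. The exception was Gstp2, a glutathione transferase gene, where folds of 6.89 and 6.87 lay 3765 bp before the start without S5 or S2 and with an HA fold of 9.47.

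Of the 10 strongest Cbp-only sites at genes, 5 lay inside or beyond a 3′ end. Cmas, which activates sialic acid, had the highest fold, 6.52, at a 210 bp peak 4634 bp inside its 3′ end, with S2 and no S5. Pou2f1, the transcription factor Oct-1, had 6.18 at a 737 bp peak 953 bp beyond its 3′ end, with both S5 and S2. Yap1, the coactivator of the Hippo pathway, had 5.83 at a 591 bp peak 2718 bp inside its 3′ end, also with both. Wdr59, a regulator of the mTORC1 pathway, had 5.51, and Lsm14a, an RNA-binding protein of processing bodies, had 5.49, both inside the 3′ part with S2 and no S5. Over starts lay Ypel5 with 5.35 and Shmt1 with 5.15. A peak of 5.43 inside Pcnx3, 1328 bp before the start of the kinase gene Map3k11, was in none of the 7 other lists. The last members were Wdr88 with 5.83, outside an end, and Etf1, the translation release factor, with 5.49 over an end. Whether these ends are starts or 3′ ends was not settled here, so both sites are left out of the counts above. HA was present at Wdr88, Etf1 and Ypel5, with its highest fold of 11.3 at Ypel5.

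The 10 strongest p300-only sites at genes each lay over a start or within 3470 bp of one. The highest folds, 13.3 over the start of the predicted gene Gm20594 and 13.2 at 3470 bp before Slc25a54, a mitochondrial carrier gene, had no S5 and no S2. Alyref2, an mRNA export factor, had 8.51 and Agbl5, a tubulin carboxypeptidase, 7.48 over a 680 bp peak at its start. The neighbouring starts of Tom1l2, of endosomal sorting, and Drc3, of the ciliary dynein regulatory complex, shared a peak of 7.45 with S5 at 7.43 and S2 at 9.74. Cnot3, a subunit of the mRNA deadenylase complex, had a fold of 7.398 at 42 bp before its start, shared with the splicing factor gene Prpf31. Lta4h had 7.39, 1700056E22Rik with Dusp10 had 7.35, and Rnase4 with Ang, ribonuclease genes that share a start region, had 7.22 over a 974 bp peak. The peak of 7.19 at Siva1, a gene of apoptosis, and Adssl1 was the only one of the 10, besides that at Gm20594, with HA, at a fold of 10.4. None of these folds is comparable with those of the Cbp list, since each was set within its own library.

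Genes of pathways that use Cbp and p300 were then counted. Over all protein-coding genes 6.64% had Cbp and 9.86% had p300. The genes of the coactivators themselves, Crebbp and Ep300, had no site. Of 20 genes for the pair and its partners, Creb1, the cAMP response factor, had Cbp and Atf4, a stress response factor, had p300. That is 5.0% for each coactivator, not far from the shares over all genes. The Creb1 peak was weak, with a fold of 3.43 and −log10 q of 0.965, over a start with S5 and S2. The Atf4 peak had a fold of 4.19.

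Of 20 known targets of cAMP and CREB, 9 (45.0%) had p300, against 9.86% of all protein-coding genes. Cbp lay at 4 (20.0%), against 6.64% of all, and no gene had Cbp alone. Egr1, Nr4a3, Per1 and Dusp1, which are genes of the immediate response to stimuli, had a common site each. Egr1, a zinc finger factor, had folds of 3.70 for Cbp and 6.29 for p300 at a site found in all 7 other target lists. This site lay 53 bp outside an end of Egr1, and whether that end is the start or the 3′ end was not settled here. Nr4a3, an orphan nuclear receptor, had 3.43 and 4.42. Junb, Sik1, Gadd45b, Atf3 and Bdnf had p300 only, and the Bdnf peak, with a fold of 4.78, was in none of the other lists. Fos, Fosb and Nr4a1 were among the 11 without a site.

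Of 25 NF-kappaB target genes, 8 (32.0%) had p300 and 6 (24.0%) had Cbp, against 9.86% and 6.64% of all protein-coding genes. Nfkbia, the inhibitor IkappaB-alpha, Relb and the surface protein gene Cd83 had both, with a common site at Nfkbia alone. Nfkb2, Ccl2 and Ccl5 had Cbp only. The Nfkb2 peak, inside the gene with a fold of 4.48, and the Ccl5 peak, with 4.12, lay in all 7 other target lists. Nfkbie, Birc2, Cxcl1, Vcam1 and Il6 had p300 only. Il6, the cytokine gene, had 5.23 over its start with S2 and no S5, and Birc2, an inhibitor of apoptosis, had 4.41 in none of the other lists.

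Housekeeping genes were counted likewise. Of 15, 6 (40.0%) had p300 and 3 (20.0%) Cbp, against 9.86% and 6.64% of all protein-coding genes. Actb, Eef1a1, Eef2 and Polr2a, the gene of Rpb1 itself, had p300 only, Ubb had Cbp only, and Hsp90ab1 had both without a common site. Small ribosomal subunit genes were the only list besides ependymoma with more Cbp than p300: of 28, 4 had Cbp (14.3%) and 2 had p300 (7.14%). These were Rps6, Rps7 and Rps19 with Cbp only, Rps21 with p300 only and Rps29 with both, while 21 of the 28 had S5, which lay at 27.1% of all protein-coding genes. The Cbp-only peaks named by rank were weak, with folds of 3.49 at Rps19 and 3.43 at Rps7.

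The Notch and interferon lists had counts near those over all genes, and the hypoxia list had a single site. Of 16 Notch genes Jag1 and Hes1 had p300 (12.5%) and Dll3 had Cbp (6.25%). Of 19 interferon genes Irf1 and Irf2, transcription factors of the response, had p300 only, H2-D1 had Cbp only and Isg15 had both at separate places, which made 15.8% with p300 and 10.5% with Cbp. Of 20 hypoxia targets, Eno1, a glycolytic enzyme, had p300 (5.0%) with a fold of 3.12, and 9 of the 20 had S5. Over all protein-coding genes 6.64% had Cbp, 9.86% had p300 and 27.1% had S5. In a list of 20 genes a single site is not far from these coactivator shares.

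Of 18 genes known from ependymoma, 5 had Cbp (27.8%) and 4 had p300 (22.2%), against 6.64% and 9.86% of all protein-coding genes. Nfkb2, Fgfr3 and Sox9 had Cbp only, Hes1 and Jag1 p300 only, and Relb and Igf1r both without a common site. Several of these genes are also in the NF-kappaB, Notch or radial glia lists, so the counts are not independent. HA peaks of M00001 lay at 8 of the 18, and at 16.0% of all protein-coding genes.

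Marker genes of cell types were read first by S2, which lay at 50.5% of all protein-coding genes. S2 lay at 9 of 18 radial glia genes, 7 of 15 ependymal genes, 5 of 15 neuron genes, 4 of 12 oligodendrocyte lineage genes, 4 of 12 microglia and leukocyte genes and 0 of 10 endothelium genes. Over all protein-coding genes 6.64% had Cbp and 9.86% had p300. Of the 18 radial glia genes 3 had Cbp and 3 had p300 (16.7% each). The 14 with neither included Sox2, Nes, Fabp7, Slc1a3 and Pax6. Radial glia markers with a coactivator were Vim and Id3, an inhibitor of differentiation, both with a common site, besides Sox9 and Hes1. At Vim the folds were 5.21 for Cbp and 5.48 for p300 over the start, in all 7 other target lists. At Id3 they were 4.08 and 5.46 at 3132 bp before the start. Ependymal markers had p300 only, at Rfx2 and Ccno, regulators of cilia formation, and at Tmem212, in 3 of 15 genes (20.0%) with folds from 3.24 to 3.69. The remaining 12, Foxj1 among them, had neither. No neuron, oligodendrocyte lineage or endothelium gene had either coactivator. At the shares over all genes, lists of 15, 12 and 10 genes would hold few sites, so these absences are not read as a result. Of the 12 microglia and leukocyte genes Tmem119 had p300 and Spi1 Cbp, the latter with −log10 q of 0. The part of other cell types in the libraries was not tested.

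**Figure D5:**
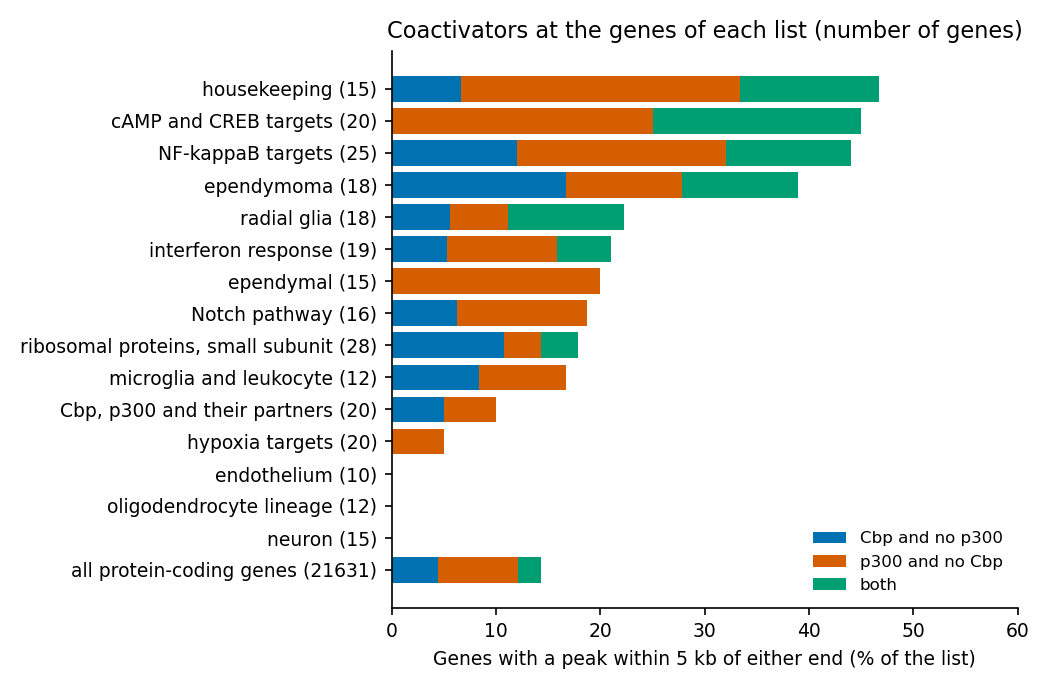
Share of the genes of each list (%) with Cbp and no p300, p300 and no Cbp, or both within 5 kb of either end, with the number of genes in brackets and all 21631 protein-coding genes as the bottom bar. Housekeeping, cAMP and CREB, NF-kappaB and ependymoma genes have the longest bars, and neuron, oligodendrocyte lineage and endothelium genes have none.

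Gene-start windows under sites of each class were richer in GC, and held GC boxes and CCAAT boxes more often, than all windows. Against windows of like GC content, set by the p300-only windows, the excess of CCAAT was still seen. The excess of GC boxes over these was small or absent for p300-only and Cbp-only windows. No such set was made for the common windows, which were richer in GC. The windows of each class were not themselves limited in GC content, so the match is rough. Windows of 300 bases, 250 before and 50 after the start, were in the RefSeq table for 17251 of the genes, and the shares hold for these 21020 windows alone. Sites covered part of 236 windows for Cbp-only, 855 for p300-only and 174 for common Cbp peaks. The median GC content was 64.0% for p300-only and 66.5% for common windows, with Cbp-only between them, against 56.7% in all windows. The GC box GGGCGG, on either strand, was in 46.6% of all windows, 73.7% of Cbp-only, 77.3% of p300-only and 85.6% of common windows. CCAAT was in 38.5%, 48.7%, 54.6% and 59.8%. Of all windows, 6245 had a GC content within the quartiles of the p300-only windows. Of these, 73.8% (72.7 to 74.9%) held a GC box and 37.6% (36.4 to 38.8%) held CCAAT.

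The full CRE element of CREB showed little difference, and its shorter form a larger one. The full CRE, TGACGTCA, was in 2.26% of all windows, 2.12% of Cbp-only, 3.63% of p300-only and 2.87% of common windows. The shorter TGACG, which lies within it, was in 23.8%, 38.6%, 40.0% and 42.5%, and in 33.2% of the 6245 windows of like GC content. The kappaB element GGGNNTTCC was in 6.35% of all windows, 4.66% of Cbp-only (2.35 to 8.19%), 6.43% of p300-only (4.88 to 8.29%) and 10.9% of common windows (6.70 to 16.5%). AP-1 (TGANTCA) was in 7.04%, 2.54%, 4.91% and 3.45%, ETS (CCGGAA) in 18.9%, 30.9%, 27.1% and 22.4%, and the E-box CACGTG in 7.91%, 8.47%, 10.6% and 10.9%. In the windows of like GC content AP-1 was in 4.12%, ETS in 28.9%, the E-box in 10.9%, kappaB in 8.15% and the full CRE in 3.75%.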

How the data were processed

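CUT&RUN peak lists of 11 libraries were used, 1 per target and line. Per the submitters' processing notes, the tools were Bowtie2 2.3.5.1, MACS2, Trim Galore, FastQC and deepTools, with mm10 as build and no settings. Peaks were called per library, and no source used here names the control for calling. The deposited lists give each peak a fold enrichment (a ratio), a −log10 p-value and a −log10 q-value at the summit, and the summit offset in bp. The smallest deposited −log10 p was 3.00. A code of unexplained meaning stands in the titles of Cbp, p300, S5 and S2 but not of HA and IgG of this line.

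Overlap meant at least 1 bp. Peaks of every target list that overlapped IgG of either line were removed. Overlaps were computed in Python 3.11.15 with numpy 2.4.6 and pandas 2.3.3 and checked on simulated intervals. Shares have exact Clopper-Pearson 95% intervals (scipy 1.17.1), and differences have Newcombe 95% intervals (statsmodels 0.14.6). Figures used matplotlib 3.10.9. Gene positions came from RefSeq (GRCm38.p6, 21631 protein-coding genes), and a gene had a coactivator when a peak lay within 5 kb of either end. Named genes were the 10 per class with the highest fold (mean of within-list ranks for common sites), genes sharing a site counted once, and up to 4 members of each gene list; a housekeeping gene is not reported here. Of 250 genes in 15 lists 249 matched (Mx1 did not). The site classes, gene lists and rules were chosen with earlier results of these data known.

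Alternatives were 50% overlap of the shorter peak, only peaks with −log10 q from 5 upward, the 2000 strongest peaks, fixed windows reaching 250 bp to either side of a summit, no IgG removal, IgG of M00001 only, other gene windows, and sites near or far from gene ends.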

Additional observations from a re-analysis of the deposited data

Results flagged for a closer look

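Chromosome Y was outside the comparisons. Of the deposited Cbp peaks 9.34% (8.65 to 10.1%, 617 peaks) lay there, above the 7.20% (6.05 to 8.49%) of IgG peaks of the same line. IgG of M00002 had 13.4%, above the Cbp value, and p300 had 7.15%. Of the 617 peaks, 58.2% overlapped IgG of either line and 48.5% overlapped p300. The cause was not tested.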

How the results depend on the processing

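No alternative turned the direction of a comparison. With each target 1 library, no fit without a replicate exists. No paired analysis was possible because every group has 1 library and no result comes from a fitted test. Depth is unknown and limits what an absent peak means. The cause of the changes below was not tested, except where fewer peaks or genes enter by construction.

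The share of Cbp peaks in p300, 18.4%, was 16.8% with 50% overlap, 41.4% with −log10 q of at least 5, 19.9% for the 2000 strongest peaks, 29.2% without IgG removal, 25.1% with IgG of M00001 alone and 35.3% with −log10 q of at least 2. The share of p300 peaks in Cbp, 17.2%, was 15.7%, 19.8%, 28.3%, 24.1% and 15.9% under 50% overlap, the 2000 strongest, no removal, IgG of M00001 and −log10 q of at least 2. Alternatives with −log10 q of at least 2, or within classes of −log10 q, were chosen after seeing the data.

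The p300-only minus Cbp-only difference at gene ends, 12.7 points, was 25.3 with −log10 q of at least 5, 16.8 for the 2000 strongest and 17.4 with at least 2. Within −log10 q classes 0 to 1, 1 to 2, 2 to 5 and from 5 it was 8.64, 10.3, 15.9 and 24.9.

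The S5 difference, 21.5 points, was 19.3 with 50% overlap, 9.57 with −log10 q of at least 5, 23.4 for the 2000 strongest, 19.5 without IgG removal, 31.1 near and 14.0 far from gene ends, 17.0 with at least 2, and 11.9, 12.9, 18.4 and 7.36 in the −log10 q classes. The S2 difference, 27.9 points, was 25.7 with 50% overlap, 7.78 with −log10 q of at least 5, 26.0 without IgG removal, 25.8 near and 21.2 far, 24.0 with at least 2, and 16.4, 21.9, 22.9 and 15.5 in the classes.

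The width difference, 24 bp, was 52, 50 and 44 bp with −log10 q of at least 5, the 2000 strongest and at least 2. Genes with both, 477, numbered 34, 194 and 166 under these settings, 256 with a 1 kb window and 1654 with 25 kb. The other 19 planned and 2 added values moved within their interval or, for counts, by less than 1.5 times.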

Other observations

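Single-coactivator sites numbered 3831 Cbp-only and 4152 p300-only in all, and the chromosomes with the highest and lowest Cbp-only shares are given here. Cbp-only made up 57.0% (48.5 to 65.3%) of the 142 Cbp-only and p300-only sites on X, 54.6% (49.7 to 59.4%) of 427 on chromosome 14, 41.6% (35.2 to 48.2%) of 233 on chromosome 19 and 35.1% (26.98 to 43.9%) of 131 on chromosome 18, the lowest share. The highest fold of any p300-only site was 25.5 and that of any Cbp-only site 15.1, both away from the genes named in the report. These extremes were chosen after their values were seen.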
